A study of Rattus norvegicus with 36 samples.

Results

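The RNA of genes that build telomerase and bind telomeres was followed in H9C2, a rat cell line that the labels call a cardiac myoblast. The 9 genes were chosen by name, namely Tert, Tep1, Dkc1, Terf1, Terf2, Terf2ip, Tinf2, Acd and Rtel1, and 8 of them were found among the 24275 genes listed. Acd was not analysed here. The genes were chosen with the rise of Tert under miR-125b against the mimic control (MC) in hypoxia already known. Values of Tert that use the Hypoxia MC or Hypoxia miR-125b libraries are therefore a description with no test. The cells received MC, miR-125b or 1 of 4 isomiRs of it (Plus A with an added base, and the shortened Trim A, Trim AG and Trim AGU) at 25 nmol/L for 24 h, followed by 24 h of hypoxia or normoxia. Counts of 11 groups with 3 libraries each were used, which were Hypoxia MC and each of the 5 other mimics in hypoxia and in normoxia. Where values are listed for all mimics they run from miR-125b over Plus A to Trim A, then Trim AG and last Trim AGU, and those for the isomiRs keep this order. Every group thus carried a transfected mimic, and none was left untransfected. Hypoxia was below 0.2% oxygen in low-glucose medium without serum, and the normoxia cells were given fresh DMEM, so oxygen, glucose and serum cannot be told apart. The cells are a single line, and no source used here says whether the 3 libraries of a group came from separate cultures, so each p-value measures the spread between these libraries, which may be technical. In RNA of whole cultures, a smaller share of cells that express a gene and less RNA of it per cell cannot be told apart.

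Telomerase is the enzyme that adds the repeats at chromosome ends. Tert is its reverse transcriptase subunit and copies a template in the RNA subunit, Dkc1 (dyskerin) binds and stabilises that RNA, and Tep1 is a telomerase-associated protein that is also part of vault particles. The ends themselves are covered by shelterin, in which Terf1 and Terf2 bind the double-stranded repeats, Terf2ip (Rap1) binds Terf2, and Tinf2 joins Terf1 to Terf2. Rtel1 is a DNA helicase that unwinds the telomere loop and other structures during replication.

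The mimics that define the groups are printed because they differ only at the 3′ end. Capitals mark the seed, bases 2 to 8 from the 5′ end, which all of them share. The mature miR-125b sequence is that of RefSeq, at chr11:29732588-29732609 on the plus strand of GRCr8, and the isomiRs were derived from it by adding or removing the bases in their names.
miR-125b: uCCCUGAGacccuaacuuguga
Plus A: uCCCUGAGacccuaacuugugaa
Trim A: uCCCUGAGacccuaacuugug
Trim AG: uCCCUGAGacccuaacuugu
Trim AGU: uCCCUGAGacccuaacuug
The mimics were thus 23 bases long for Plus A, 22 for miR-125b and 21, 20 and 19 for Trim A, Trim AG and Trim AGU.

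The libraries held 28361216 to 42672584 counts. The label was checked against marker genes in CPM, which are counts scaled to the same library total. Of the skeletal myoblast markers, Myod1 was at 17.1 to 146 CPM, Cdh15 at 190 to 599 CPM and Myf5 at no more than 0.0703 CPM. Des was low, at 0.855 to 4.98 CPM, and Chrna1 was at 0.458 to 32.1 CPM with a median of 1.60 CPM. Of the cardiac muscle markers, Nkx2-5 and Myh6 stayed below 1 CPM (at most 0.987 and 0.894 CPM) and Nppa reached at most 0.301 CPM, while Tnnt2 ranged from 9.22 to 316 CPM and Gata4 from 8.72 to 16.4 CPM. Tnni3, the remaining cardiac marker, was at 0.855 to 3.43 CPM with a median of 1.62 CPM. The 6 cardiac markers summed to 307 to 329 CPM in Hypoxia MC and to 27.3 to 69.3 CPM in the other groups, Tnnt2 making up nearly all of the sum in Hypoxia MC. The 6 myoblast markers, among them Myog at 10.4 to 359 CPM, summed to 837 to 878 CPM in Hypoxia MC and to 250 to 547 CPM in the 5 other hypoxia groups, and to 564 to 794 CPM in normoxia. Both sums were thus higher in Hypoxia MC than in any other group, and their part in the comparisons with MC was not tested. The 2 endothelial markers listed of 5 summed to at most 4.60 CPM, the 5 leukocyte markers to at most 3.67 CPM and the 4 epithelial markers to at most 0.549 CPM in any library. Fibroblast markers summed to 6382 to 30409 CPM, nearly all of it type I collagen, which myoblast lines also make. Of the other fibroblast markers, Thy1 was at 79.8 to 261 CPM, Dcn at 0.797 to 44.2 CPM and Pdgfra at no more than 0.846 CPM.

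Some libraries stood apart from the others of their group. Replicate 1 of Hypoxia Trim A, Hypoxia Trim AG and Hypoxia Trim AGU held more type I collagen RNA, with Col1a1 and Col1a2 summing to 25851, 13282 and 19511 CPM, than the other replicates of these groups (13607 and 15181, 6271 and 9408, and 10561 and 12810 CPM). The same libraries held the most Tep1. In normoxia, replicate 1 of Plus A and replicate 1 of miR-125b deviated from their groups in opposite directions, for example for Terf1 (13.1 against 9.43 and 9.20 CPM in Plus A, 9.49 against 12.0 and 12.8 CPM in miR-125b). Hypoxia Trim AGU replicate 2 had counts for 16981 genes, the fewest of the 33 libraries, against 18663 and 18455 in the other replicates of its group. For the telomere genes chosen, results without these libraries are given where leaving 1 of them out changed whether the result passed or was called. The part of collagen or of any batch in the results was not tested.

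Levels here are CPM of the library total, while fold changes come from counts scaled by edgeR's TMM factors, so a ratio of levels differs slightly from the fitted fold. Genes were compared in FPKM, in which counts are divided by gene length and library size. Across the groups Tert had the lowest level of the 8 genes on this scale, with group means of 0.0837 to 0.831 FPKM. Dkc1 had the highest, at 34.8 to 58.4 FPKM. Between them lay Rtel1 at 20.6 to 27.8 FPKM, Terf2ip at 12.3 to 23.4 FPKM, Terf2 at 12.9 to 18.5 FPKM, Tep1 at 6.60 to 11.4 FPKM, Tinf2 at 6.99 to 10.1 FPKM and Terf1 at 3.05 to 8.13 FPKM. Tert also spanned the widest range, its highest group mean in CPM being 9.80 times its lowest. The other genes spanned 1.30 times (Rtel1) to 2.51 times (Terf1).

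**Figure D1:**
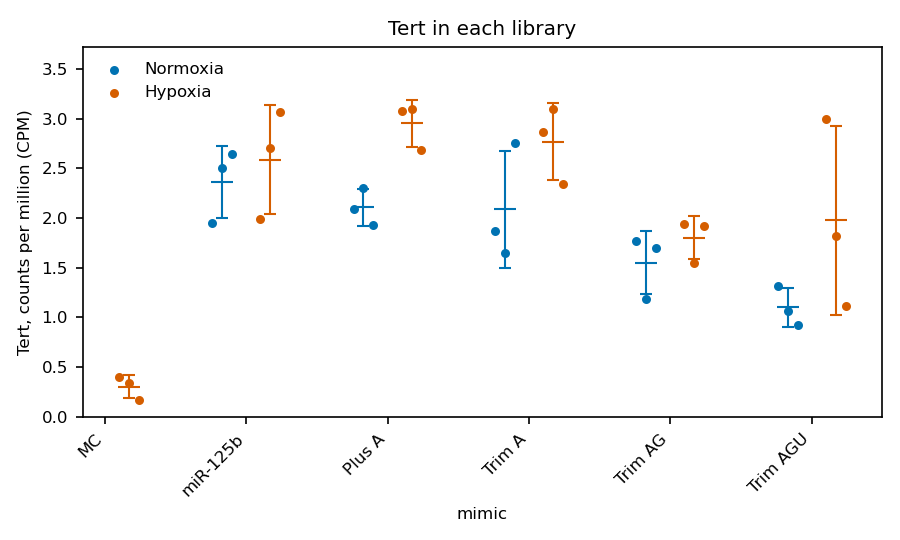
Tert level (CPM) in each of the 33 libraries (points) by group, with the mean and SD of the 3 libraries of a group. Hypoxia MC lies at 0.172 to 0.397 CPM, below every other library, and Normoxia Trim AGU is the next group at 0.925 to 1.32 CPM.

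Tert was nearly silent in cells given MC in hypoxia and present with every other mimic in both conditions. Normoxia MC is outside the 11 groups, and only the authors' mean was used for it. That mean of Tert was 14.9 normalised counts, beside 62.6 in Normoxia Plus A, with no test. The gene (ENSRNOG00000025327) lies on the minus strand at 32251714 to 32272476 of chromosome 1 in the tables' own coordinates, whose build is not given in the sources used here. The Hypoxia MC libraries held 12, 10 and 5 counts of Tert, which is 0.397, 0.336 and 0.172 CPM. Hypoxia miR-125b libraries were at 1.99, 2.71 and 3.07 CPM. All 3 lay above every Hypoxia MC library. Hypoxia Plus A libraries were at 3.07, 3.10 and 2.69 CPM. Hypoxia Trim A libraries were at 2.87, 3.10 and 2.35 CPM. These groups overlapped each other and Hypoxia miR-125b. Hypoxia Trim AG was at 1.94, 1.55 and 1.92 CPM, each below every Hypoxia miR-125b library. Hypoxia Trim AGU was at 3.00, 1.82 and 1.12 CPM and had the widest spread of all groups, with replicate 1 as high as Plus A and replicate 3 near its normoxia level. As a description, the log2 fold change of Tert against MC in hypoxia was 3.12 (SE 0.31) with miR-125b, 3.29 (SE 0.29) with Plus A, 3.22 (SE 0.31) with Trim A, 2.62 (SE 0.32) with Trim AG and 2.83 (SE 0.50) with Trim AGU, which is 6.17-fold to 9.80-fold. These 5 values share the 3 Hypoxia MC libraries, and with 5 to 12 counts there, the size of each fold depends on few reads. Against Hypoxia miR-125b the described log2 fold change was 0.17 (SE 0.19) with Plus A, 0.10 (SE 0.21) with Trim A, -0.51 (SE 0.21) with Trim AG and -0.30 (SE 0.38) with Trim AGU.

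In normoxia Tert was tested, since the Hypoxia MC and Hypoxia miR-125b libraries, in which its rise was known, take no part. Among the alternatives below, only the joint fit of all libraries takes them in, and its result for Tert is a description. Earlier results of these data were also known when the genes and tests were chosen. The p-values of Tert may therefore not be free of that choice. Normoxia miR-125b libraries were at 1.95, 2.51 and 2.64 CPM. Normoxia Plus A was at 2.09, 2.31 and 1.93 CPM. Normoxia Trim A was at 1.87, 1.65 and 2.76 CPM. The 3 groups overlapped. Normoxia Trim AG was at 1.77, 1.19 and 1.70 CPM and Normoxia Trim AGU at 1.32, 1.07 and 0.925 CPM. Both lay below every Normoxia miR-125b library. Tert fell with Trim AGU against miR-125b in normoxia by 1.11 on the log2 scale (SE 0.24, 2.15-fold, edgeR quasi-likelihood test with Benjamini-Hochberg adjustment over all genes, adjusted p = 0.00942), and it remained called in each of 12 alternatives (adjusted p 0.00437 to 0.0425). With Trim AG it fell by 0.65 (SE 0.22, adjusted p = 0.0418), but this call was lost in 10 of 12 alternatives. It was lost with library size as the only scaling, with no filter on low counts, with the replicate block, with DESeq2 and in the joint fit of all libraries. It was also lost on leaving out Normoxia miR-125b replicate 2 (-0.60, adjusted p = 0.105) or 3 (-0.57, adjusted p = 0.12), or Normoxia Trim AG replicate 1 (-0.75, adjusted p = 0.0567), 2 (-0.49, adjusted p = 0.129) or 3 (-0.72, adjusted p = 0.0749). Tert did not pass with Plus A (-0.16, 95% interval -0.60 to 0.28, adjusted p = 0.997) or Trim A (-0.17, 95% interval -0.71 to 0.37, adjusted p = 0.753). The same 3 Normoxia miR-125b libraries serve all of these comparisons.

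Hypoxia against normoxia did not pass for Tert under any isomiR, although every Hypoxia Plus A library lay above every Normoxia Plus A library. With Trim A, Trim AG and Trim AGU the hypoxia and normoxia libraries overlapped. The log2 fold change was 0.38 with Plus A (SE 0.19, 95% interval -0.04 to 0.79, edgeR adjusted p = 0.119, and 0.0502 with library size as the only scaling), 0.33 with Trim A (SE 0.24, adjusted p = 0.283) and 0.22 with Trim AG (SE 0.23, adjusted p = 0.433). With Trim AGU it was 0.87 (SE 0.40, 95% interval -0.06 to 1.81, adjusted p = 0.135) and 0.50 without Hypoxia Trim AGU replicate 1. The fit of all libraries called this last difference, but it takes in the Hypoxia MC and Hypoxia miR-125b libraries. For Tert its result is therefore a description. With miR-125b the value was 0.05 (SE 0.21), as a description. Among the 11 groups ordered by Tert level, from Hypoxia Plus A (2.95 CPM) through Hypoxia Trim A, Hypoxia miR-125b, Normoxia miR-125b, Normoxia Plus A, Normoxia Trim A, Hypoxia Trim AGU, Hypoxia Trim AG, Normoxia Trim AG and Normoxia Trim AGU (1.10 CPM) to Hypoxia MC (0.301 CPM), only the last pair of neighbours did not overlap.

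**Figure D2:**
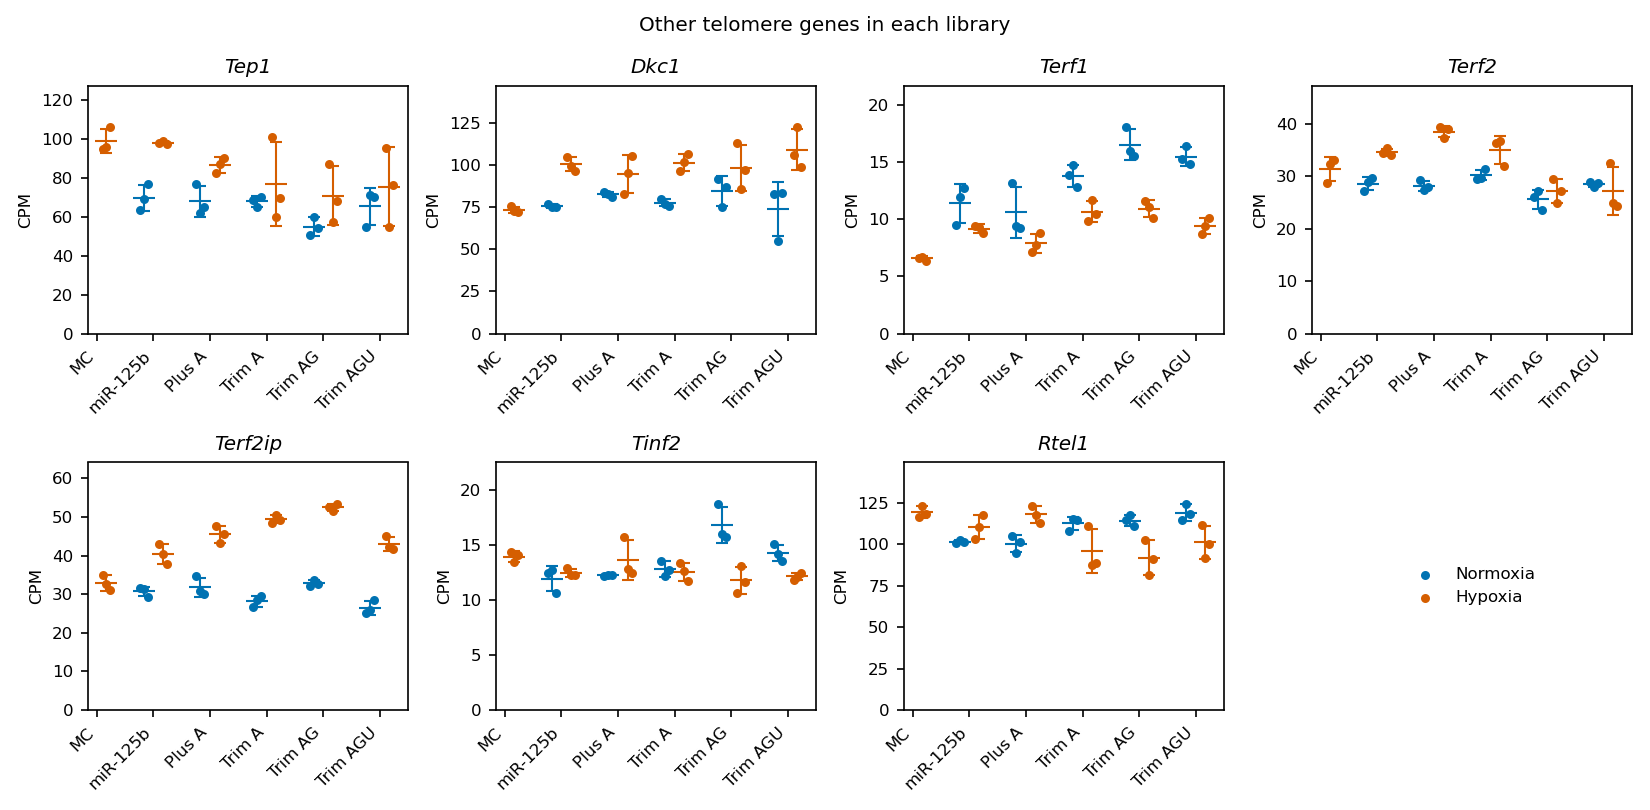
Level (CPM) of the other 7 genes in each library (points) by group, with the mean and SD of the 3 libraries of a group, on an axis of its own for each gene. Terf2ip sits higher in each hypoxia group than in the normoxia group of the same mimic and Terf1 lower, while replicate 1 of the Hypoxia Trim groups stands out for Tep1.

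The other 7 genes show whether the mimics moved further genes of telomerase and telomere binding beside Tert. They are not the whole of telomerase or shelterin, as Acd and the telomerase RNA were not analysed. All 7 passed the filter on low counts in every comparison. To be called, a gene had to change 1.5-fold or more with an adjusted p below 0.05. Against MC in hypoxia, 0 of the 7 were called with miR-125b, 0 with Plus A and 2 each with Trim A, Trim AG and Trim AGU, where 21.9%, 24.8%, 28.1%, 37.2% and 23.8% of all genes tested were called. On the adjusted p alone, 4, 4, 4, 5 and 3 of the 7 passed, beside 59.5%, 56.6%, 52.1%, 59.4% and 29.9% of all genes. At an unadjusted p below 0.05 the numbers were 4, 5, 5, 5 and 3, and DESeq2 called 0, 0, 2, 2 and 2. The shares of the 7 genes thus lay on either side of those of all genes, with 0 called with miR-125b and with Plus A. With only 7 genes, no likeness to all genes and no difference from them is read from this. The median log2 fold change of the 7 genes in these 5 comparisons was 0.18, 0.28, 0.20, -0.14 and -0.06. That of all genes lay within 0.02 of 0 in each.

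Dkc1, the dyskerin gene (ENSRNOG00000055562), rose with every mimic against MC in hypoxia. The Hypoxia MC libraries were at 75.3, 72.8 and 71.9 CPM. Hypoxia miR-125b libraries were at 105, 99.5 and 96.6 CPM and Hypoxia Trim AGU libraries at 106, 122 and 98.8 CPM. Every library of the 5 other groups lay above those of Hypoxia MC. The log2 fold change was 0.49 with miR-125b (SE 0.04, edgeR adjusted p = 1.57e-06), 0.39 with Plus A (adjusted p = 0.00153), 0.51 with Trim A (adjusted p = 0.000501), 0.49 with Trim AG (adjusted p = 0.0025) and 0.72 with Trim AGU (SE 0.14, adjusted p = 0.0123). The first 4 passed whichever library was left out. The last, which was the only one past 1.5-fold, lost its adjusted p on leaving out Hypoxia MC replicate 1, 2 or 3 (0.0576, 0.0628 and 0.0681) and fell to 0.56, under 1.5-fold, without Hypoxia Trim AGU replicate 2, the library with the fewest genes. None of the isomiRs differed from miR-125b for Dkc1 in hypoxia (-0.10 to 0.22) or in normoxia (-0.04 to 0.14) at an adjusted p below 0.05, except Normoxia Trim AG without its replicate 2 (0.19, adjusted p = 0.0419). Hypoxia against normoxia raised Dkc1 with miR-125b (0.33, adjusted p = 0.00042) and with Trim A (0.31, adjusted p = 0.00879, and 0.0512 without Normoxia Trim A replicate 3), and the other 3 values, 0.08 to 0.61, did not pass. Trim AG did without Hypoxia Trim AG replicate 2 (0.31, adjusted p = 0.0207). Trim AGU (0.61, adjusted p = 0.0583) was called by DESeq2 and in the joint fit of all libraries, but in none of the 6 fits with 1 library left out (0.44 to 0.72).

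Tep1 (ENSRNOG00000051706) fell with Trim AG and Plus A in hypoxia and with Trim AG in normoxia, and rose with hypoxia under 3 of the 5 mimics. The Hypoxia MC libraries were at 94.8, 96.0 and 106 CPM. Hypoxia miR-125b libraries were at 97.7, 99.1 and 97.5 CPM, and this pair did not pass (0.02, 95% interval -0.07 to 0.12, edgeR adjusted p = 0.634). With Trim AG the hypoxia libraries were at 87.2, 57.5 and 68.0 CPM, a fall of 0.42 against MC (adjusted p = 0.0232) and of 0.45 against miR-125b (adjusted p = 0.0214). The fall against MC no longer passed without Hypoxia MC replicate 2 (adjusted p = 0.0529) or 3 (0.0837) or Hypoxia Trim AG replicate 3 (0.0803). That against miR-125b no longer passed without Hypoxia miR-125b replicate 1, 2 or 3 (0.0655, 0.0681 and 0.0654) or Hypoxia Trim AG replicate 3 (0.0803). Without replicate 1 of Hypoxia Trim AG, which stands apart, it was -0.61 (adjusted p = 0.000141) and past 1.5-fold. Hypoxia Trim A libraries were at 101, 59.8 and 69.9 CPM and Hypoxia Trim AGU libraries at 95.3, 54.9 and 76.3 CPM. In both groups replicate 1 was near MC and the others were below it. With all libraries, Trim A against MC (-0.32, adjusted p = 0.133), Trim A against miR-125b (-0.35, adjusted p = 0.238) and Trim AGU against MC (-0.26, adjusted p = 0.252) did not pass. Without replicate 1 of the Trim group these values were -0.56 (adjusted p = 5.02e-05), -0.58 (adjusted p = 4.5e-05) and -0.43 (adjusted p = 0.0449). In each comparison this was the only 1 of 6 fits with a library left out that passed. The library left out held the most Tep1 of its group, so these p-values depend on that choice. Plus A lowered Tep1 by 0.17 against MC (adjusted p = 0.0245, lost without Hypoxia MC replicate 3 or Hypoxia Plus A replicate 2, at 0.0932 and 0.0653) and by 0.20 against miR-125b (adjusted p = 0.0193, lost without Hypoxia Plus A replicate 2 or any 1 of the 3 Hypoxia miR-125b libraries, at 0.0594 to 0.0752).

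In normoxia Tep1 fell with Trim AG against miR-125b. The libraries were at 50.5, 59.9 and 54.2 CPM with Trim AG against 63.5, 69.2 and 76.8 CPM with miR-125b, with no overlap, and the log2 fold change was -0.39 (SE 0.08, edgeR adjusted p = 0.00573), which passed whichever library was left out. Hypoxia raised Tep1 by 0.41 with miR-125b (adjusted p = 0.000646), also in every fit with 1 library left out. The rise of 0.24 with Plus A (adjusted p = 0.0284) was lost without Normoxia Plus A replicate 2 (0.127) or 3 (0.108) or Hypoxia Plus A replicate 2 (0.0769) or 3 (0.0894). That of 0.37 with Trim AG (adjusted p = 0.0434) was lost without any 1 of the 3 Normoxia Trim AG libraries (0.0559 to 0.142) or without Hypoxia Trim AG replicate 1 (0.0758) or 3 (0.0655). With Trim A the value was 0.10, and -0.13 without Hypoxia Trim A replicate 1, so that its sign rested on this library.

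The shelterin genes followed here, Terf1, Terf2, Terf2ip and Tinf2, did not move as a block. Terf1 (ENSRNOG00000007291), which binds the double-stranded repeats, was lowest in Hypoxia MC, at 6.61, 6.72 and 6.38 CPM. Hypoxia miR-125b libraries were at 9.42, 9.36 and 8.75 CPM and Hypoxia Trim AG libraries at 11.6, 11.1 and 10.1 CPM. Neither group overlapped with Hypoxia MC. Terf1 rose against MC by 0.52 with miR-125b (SE 0.11, edgeR adjusted p = 0.00149), 0.74 with Trim A (adjusted p = 0.00145) and 0.80 with Trim AG (adjusted p = 0.000375). These passed in every fit with 1 library left out, and the last 2 stayed past 1.5-fold in all of them. The rise of 0.66 with Trim AGU (adjusted p = 0.0213) was lost without any 1 of the 3 Hypoxia MC libraries or Hypoxia Trim AGU replicate 3 (adjusted p 0.0584 to 0.106). With Plus A the value was 0.28 (adjusted p = 0.0681), and 0.35 (adjusted p = 0.0432) without Hypoxia Plus A replicate 1.

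Terf1 moved the other way with hypoxia. Normoxia Trim AG libraries were at 18.03, 15.9 and 15.5 CPM and Normoxia Trim AGU libraries at 15.2, 16.4 and 14.8 CPM, above every hypoxia library of either mimic. The log2 fold change of hypoxia against normoxia was -0.59 with Trim AG (SE 0.11, edgeR adjusted p = 0.00165), which passed whichever library was left out but was -0.52 without Normoxia Trim AG replicate 1 or without Hypoxia Trim AG replicate 3, under 1.5-fold. The falls with the other mimics each depended on single libraries. That of 0.67 with Trim AGU (adjusted p = 0.0222) was lost without any 1 of the 3 Normoxia Trim AGU libraries or Hypoxia Trim AGU replicate 3 (adjusted p 0.0631 to 0.0816). That of 0.53 with Plus A (adjusted p = 0.0158) was lost without Hypoxia Plus A replicate 1 (0.0536) or 2 (0.05), and was past 1.5-fold without Normoxia Plus A replicate 2 or 3 or Hypoxia Plus A replicate 3 (-0.61, -0.63 and -0.62). That of 0.45 with Trim A (adjusted p = 0.0136) was lost without Normoxia Trim A replicate 2 (0.059). That of 0.40 with miR-125b (adjusted p = 0.025) was lost without Normoxia miR-125b replicate 2 or 3 or any 1 of the 3 Hypoxia miR-125b libraries (0.0557 to 0.093). In normoxia Terf1 rose by 0.49 with Trim AG against miR-125b (adjusted p = 0.0116, kept whichever library was left out) and by 0.43 with Trim AGU (adjusted p = 0.0391). The latter was lost without Normoxia miR-125b replicate 1 (0.32, adjusted p = 0.0945) or 2 (0.0771) or without any 1 of the 3 Normoxia Trim AGU libraries (0.0705 to 0.0796).

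Terf2ip, the gene of Rap1 (ENSRNOG00000010712), rose both with the mimics against MC and with hypoxia. The Hypoxia MC libraries were at 35.0, 32.6 and 31.0 CPM. Hypoxia Trim A libraries were at 48.6, 50.5 and 49.2 CPM and Hypoxia Trim AG libraries at 52.6, 51.6 and 53.4 CPM. Both groups lay above every library of Hypoxia MC, Hypoxia miR-125b (43.1, 40.5 and 37.8 CPM) and all normoxia groups. Against MC the log2 fold change was 0.34 with miR-125b (SE 0.06, edgeR adjusted p = 0.000972), 0.49 with Plus A (adjusted p = 0.00012), 0.63 with Trim A (adjusted p = 0.000224) and 0.74 with Trim AG (SE 0.07, adjusted p = 4.89e-05). All 4 passed whichever library was left out, and Trim A and Trim AG were called in each of 12 alternatives. The rise of 0.53 with Trim AGU (adjusted p = 0.0134) was lost without Hypoxia MC replicate 1, 2 or 3 (0.0558, 0.077 and 0.0852) and was 0.59 (adjusted p = 0.0303), past 1.5-fold, without Hypoxia Trim AGU replicate 3. Against miR-125b in hypoxia, Trim AG raised Terf2ip by a further 0.39 (adjusted p = 0.0034, in every fit with 1 library left out). Trim A gave 0.29 (adjusted p = 0.0773), and 0.32 (adjusted p = 0.00209) without Hypoxia Trim A replicate 1.

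Hypoxia raised Terf2ip under all 5 mimics. The log2 fold change was 0.31 with miR-125b (edgeR adjusted p = 0.0034), 0.41 with Plus A (adjusted p = 0.00119), 0.73 with Trim A (adjusted p = 8.54e-05), 0.68 with Trim AG (adjusted p = 5.44e-05) and 0.74 with Trim AGU (adjusted p = 0.00661). No left-out library took any of the 5 past an adjusted p of 0.05, and the 3 Trim values were called in each of 12 alternatives. In normoxia the isomiRs did not pass against miR-125b (-0.22 to 0.05).

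Terf2 (ENSRNOG00000020435), the partner of Rap1, was highest in Hypoxia Plus A, at 39.4, 37.3 and 39.0 CPM, above every library of any other group. It rose with Plus A by 0.32 against MC (edgeR adjusted p = 0.00214) and by 0.34 in hypoxia against normoxia (adjusted p = 0.00176). Both passed whichever library was left out. With miR-125b it rose by 0.18 against MC (adjusted p = 0.0224, lost without Hypoxia MC replicate 1 at 0.0966 or Hypoxia miR-125b replicate 2 at 0.0688) and by 0.19 in hypoxia (adjusted p = 0.0189, lost without Hypoxia miR-125b replicate 1 at 0.0556 or 2 at 0.0761). Trim AG lowered it by 0.33 against miR-125b in hypoxia (adjusted p = 0.00902), from 34.5, 35.4 and 34.0 CPM to 29.4, 24.9 and 27.3 CPM, whichever library was left out. In normoxia Trim AG gave -0.20 (adjusted p = 0.0578), which passed without Normoxia miR-125b replicate 1 (0.0455) or Normoxia Trim AG replicate 2 (0.0445).

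Tinf2 (ENSRNOG00000020189), which joins Terf1 to Terf2, was highest in Normoxia Trim AG, at 18.7, 16.0 and 15.7 CPM, against 12.5, 12.7 and 10.6 CPM in Normoxia miR-125b. It rose there by 0.45 (edgeR adjusted p = 0.0108), and fell by 0.51 in Hypoxia Trim AG, at 10.6, 13.0 and 11.7 CPM, against Normoxia Trim AG (adjusted p = 0.00694). Both passed whichever library was left out, the fall being past 1.5-fold (-0.59) without Hypoxia Trim AG replicate 2. No mimic passed for Tinf2 against MC in hypoxia (-0.18 to -0.01), apart from Trim AG without its replicate 2 (-0.27, adjusted p = 0.0479). The gene overlaps Gmpr2 by 1059 bases in the tables' coordinates and the libraries were not stranded, so its counts are uncertain.

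Rtel1 (ENSRNOG00000027513), the helicase, varied least, with group means of 91.9 to 119.5 CPM. The Hypoxia MC libraries were at 117, 123 and 118 CPM. Hypoxia Trim AG libraries were at 103, 81.8 and 91.1 CPM and Hypoxia Trim A libraries at 111, 87.9 and 88.9 CPM. Replicate 1 was the highest of each Trim group. Rtel1 fell against MC by 0.32 with Trim AG (edgeR adjusted p = 0.0134, lost without Hypoxia MC replicate 2 at 0.0597 or Hypoxia Trim AG replicate 3 at 0.0568) and by 0.27 with Trim A (adjusted p = 0.04, lost without any 1 of the 3 Hypoxia MC libraries or Hypoxia Trim A replicate 2 or 3, at 0.0849 to 0.135). With miR-125b the value was -0.08 (adjusted p = 0.188), and -0.13 (0.0333) without Hypoxia miR-125b replicate 3. Against miR-125b in hypoxia, Trim A (-0.20, adjusted p = 0.26) and Trim AG (-0.25, adjusted p = 0.0551) did not pass with all libraries but did without replicate 1 of the Trim group (-0.31, adjusted p = 0.00112, and -0.33, adjusted p = 0.00517). In both comparisons no other fit with 1 library left out passed. Hypoxia lowered Rtel1 by 0.31 with Trim AG (adjusted p = 0.0162, lost without Normoxia Trim AG replicate 1 or 2 or Hypoxia Trim AG replicate 3, at 0.0549 to 0.0701) and by 0.31 with Trim A (adjusted p = 0.0282, lost without any 1 of the 3 Normoxia Trim A libraries or Hypoxia Trim A replicate 2 or 3, at 0.0567 to 0.103). In normoxia it rose with Trim AGU by 0.22 (adjusted p = 0.0431), which was lost whichever library was left out (0.0569 to 0.127).

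**Figure D3:**
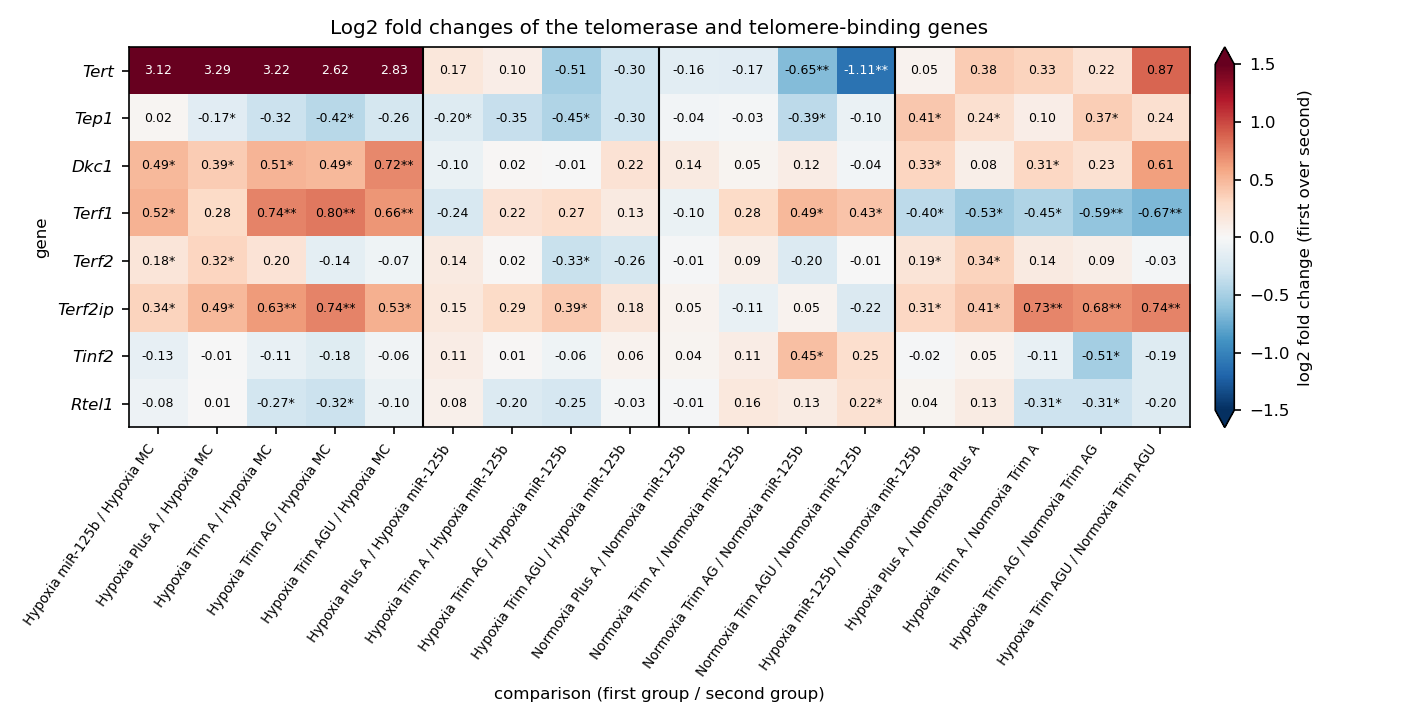
Log2 fold change (colour, limited to 1.5 either way) of each gene (rows) in the 18 comparisons (columns), with ** for a call and * for an adjusted p below 0.05 only. Tert against MC is off the scale at 2.62 to 3.29 and carries no mark, as its values there are a description, and Terf2ip is positive in all 10 comparisons against MC or against normoxia.

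None of the 7 genes other than Tert was called against miR-125b, where the share of all genes called was also smaller than against MC. In hypoxia, edgeR called 0 of the 7 with each isomiR against miR-125b, where, in the order above, 2.03%, 0.873%, 19.3% and 3.75% of all genes were called. On the adjusted p alone 1, 0, 3 and 0 passed, beside 15.9%, 2.19%, 41.4% and 4.15% of all genes. At an unadjusted p below 0.05 there were 3, 1, 5 and 0, and DESeq2 called 0 in each. In normoxia edgeR also called 0 in each of the 4, where 0%, 0.414%, 13.9% and 11.4% of all genes were called. There 0, 0, 3 and 2 passed on the adjusted p, beside 0%, 1.92%, 38.5% and 25% of all genes. The unadjusted p gave 1, 1, 5 and 3, and DESeq2 called 0 in each. With replicate 1 of both Normoxia Plus A and Normoxia miR-125b left out, 166 genes were called in place of 0, and none of the 8 genes passed, the nearest being Terf1 (-0.38, adjusted p = 0.0968). In hypoxia against normoxia 0, 0, 1, 2 and 2 of the 7 were called, in the order of mimics above, beside 20.9%, 22.8%, 26.5%, 32.8% and 27% of all genes. On the adjusted p 5, 4, 4, 5 and 2 passed, beside 50.8%, 49.2%, 47.6%, 54.7% and 30.2%. The unadjusted p gave 5, 4, 4, 5 and 3, and DESeq2 called 0, 0, 1, 2 and 3.

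Whether an isomiR differed from miR-125b by another amount in hypoxia than in normoxia was tested as an interaction. Here edgeR called 0 of the 7 genes with any isomiR, where 0.0193%, 0.605%, 11.3% and 0.966% of all genes were called in the order above. On the adjusted p alone 0, 0, 3 and 0 passed, beside 0.0385%, 0.811%, 22.7% and 0.966% of all genes, the unadjusted p gave 1, 2, 3 and 1, and DESeq2 called 0 in each. With Trim AG the interaction was 0.33 for Terf2ip (SE 0.09, adjusted p = 0.0202), -0.52 for Tinf2 (SE 0.16, adjusted p = 0.0324) and -0.39 for Rtel1 (SE 0.11, adjusted p = 0.0194), the difference between Trim AG and miR-125b going from 0.05 in normoxia to 0.39 in hypoxia for Terf2ip, from 0.45 to -0.06 for Tinf2 and from 0.13 to -0.25 for Rtel1. Terf2ip lost its adjusted p without Hypoxia miR-125b replicate 3 (0.0617) or Hypoxia Trim AG replicate 3 (0.0515). Rtel1 lost it without Hypoxia miR-125b replicate 3 (0.0606), Normoxia Trim AG replicate 2 (0.0508) or Hypoxia Trim AG replicate 3 (0.0501). Tinf2 lost it without Normoxia miR-125b replicate 3, any 1 of the 3 Hypoxia miR-125b libraries, Normoxia Trim AG replicate 1 or Hypoxia Trim AG replicate 3 (0.0597 to 0.0859), and was past 1.5-fold without Hypoxia Trim AG replicate 2 (-0.61, adjusted p = 0.014). With Trim A no interaction passed with all libraries (Terf2ip 0.42, adjusted p = 0.0537). Without Hypoxia Trim A replicate 1 those of Terf2ip (0.44, adjusted p = 0.00313), Tep1 (-0.54, adjusted p = 0.00212) and Rtel1 (-0.45, adjusted p = 0.001) did. That library held the most Tep1 and Rtel1 and the least Terf2ip of its group. For Tert the interactions, as a description, were 0.32, 0.28, 0.13 and 0.84 in the same order.

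RefSeq's window of 250 bases before to 50 after the start of the gene was found for 7 of the 8 genes on GRCr8. Those of Tert, the gene that ranged most, and of Terf2ip, the gene raised in most comparisons, are shown, with GGGCGG in capitals. That of Tert lies at chr1:31488062-31488361 on the minus strand and that of Terf2ip at chr19:56885961-56886260 on the plus strand.
Tert: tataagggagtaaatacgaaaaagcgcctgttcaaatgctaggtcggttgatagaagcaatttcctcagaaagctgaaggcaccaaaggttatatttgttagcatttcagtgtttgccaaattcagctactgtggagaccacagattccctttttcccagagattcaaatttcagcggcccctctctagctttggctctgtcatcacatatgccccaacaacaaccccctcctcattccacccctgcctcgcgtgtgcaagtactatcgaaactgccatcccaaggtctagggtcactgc
Terf2ip: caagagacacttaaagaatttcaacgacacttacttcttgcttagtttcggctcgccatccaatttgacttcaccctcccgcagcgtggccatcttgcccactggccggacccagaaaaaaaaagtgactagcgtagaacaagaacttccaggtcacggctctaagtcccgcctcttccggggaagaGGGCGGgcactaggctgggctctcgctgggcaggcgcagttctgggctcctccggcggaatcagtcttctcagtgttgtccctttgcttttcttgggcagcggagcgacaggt
A few short motifs were searched on both strands of these windows. GGGCGG, the core of a GC box that Sp1 can bind, was in 5 of the 7 windows and in 33.1% of the 33469 windows of all genes. CACGTG, an E-box that Myc with Max can bind, was in 1 (Dkc1) and in 6.42% of all windows. ACGTG, 1 form of the core of the hypoxia response element, was in 2 (Tep1 and Dkc1) and in 19.3% of all windows. Any CACGTG also holds it. The other form, GCGTG, was not searched, and it can be read in the Tert and Terf2ip windows above. The Tert window held none of the 3 motifs searched and was 47.0% G and C, against a median of 51.7% over all windows.

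Other genes of telomere upkeep were followed in 3 lists, and 2 more lists described growth and the hypoxia response. Of the 13 genes found of 14 for telomerase assembly and RNA maturation, 1, 1, 1, 3 and 4 were called higher and 0 lower with the 5 mimics against MC in hypoxia, with a median log2 fold change of 0.03 to 0.41. Of all genes, 21.9%, 24.8%, 28.1%, 37.2% and 23.8% were called in either direction in these comparisons, so the share of the list was below that of all genes in the first 4 and above it with Trim AGU. Gar1, a partner of Dkc1 in the H/ACA particle, was called higher in all 5 (0.65 to 1.23) and with hypoxia in 4 of 5 (0.39 to 1.13). Its libraries rose from 27.7, 29.5 and 22.2 CPM in Hypoxia MC to 64.8, 56.0 and 58.0 CPM in Hypoxia Trim AG. Ruvbl2, an ATPase of the assembly machinery, was called higher in 2 of 5 against MC (0.52 to 0.92), and Pinx1, a telomerase inhibitor, in 2 of 5 (0.23 to 0.89). Papd5, a poly(A) polymerase that acts on the telomerase RNA, was called higher in 2 of 4 comparisons with miR-125b in normoxia (0.03 to 0.87). Against normoxia, hypoxia gave 1, 0, 2, 2 and 4 calls higher and 0, 0, 0, 0 and 1 lower in this list. The shares of all genes called there were 20.9%, 22.8%, 26.5%, 32.8% and 27%. Against miR-125b, 0, 0, 2 and 0 were called higher in hypoxia and 0, 0, 1 and 1 in normoxia, and 0 lower. All genes were called there at 2.03%, 0.873%, 19.3% and 3.75% in hypoxia and at 0%, 0.414%, 13.9% and 11.4% in normoxia.

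Of the 20 genes found of 21 for end protection and replication, 1, 1, 3, 5 and 2 were called higher and 1, 0, 0, 0 and 1 lower against MC, a smaller share in each than the 21.9% to 37.2% of all genes. With hypoxia against normoxia 0 were called higher and 3, 3, 3, 4 and 5 lower, with a median of -0.34 to -0.09, again a smaller share in each than the 20.9% to 32.8% of all genes. The helicases Pif1 and Blm fell with hypoxia under all 5 mimics (Pif1 -2.27 to -1.43, Blm -1.61 to -1.14), and Obfc1 (Stn1), of the CST complex, in 4 of 5 (-0.90 to -0.46). Ercc1, of a DNA repair nuclease, was called higher with all 5 mimics against MC (0.61 to 1.09). Pif1 was called higher in normoxia with 3 of 4 isomiRs against miR-125b (0.11 to 1.54), with 6.05 ± 0.788 CPM (SD, n = 3) in Normoxia miR-125b and 18.1 ± 1.37 CPM in Normoxia Trim AG. In that family 0, 1, 3 and 4 of the 20 were called higher and 0 lower, and in hypoxia 0, 0, 2 and 0 higher and 0 lower. All genes were called at 0%, 0.414%, 13.9% and 11.4% in that family and at 2.03%, 0.873%, 19.3% and 3.75% in hypoxia.

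Of the 14 genes known to regulate Tert transcription, 2, 4, 3, 3 and 3 were called higher and 1 lower in each comparison with MC, beside 21.9%, 24.8%, 28.1%, 37.2% and 23.8% of all genes in either direction, and the share of the list lay on either side of these. Myc, an activator of Tert, was called higher with all 5 mimics against MC (0.75 to 1.59) and with hypoxia under all 5 (0.71 to 1.58). Wt1, described as a repressor, was the gene called lower with all 5 mimics (-2.65 to -0.73), from 4.07, 3.79 and 4.26 CPM in Hypoxia MC to 2.41, 2.06 and 2.65 CPM in Hypoxia miR-125b. E2f1, a growth regulator, fell with hypoxia under all 5 mimics (-1.43 to -1.08). With hypoxia 3, 5, 4, 4 and 4 genes of the list were called higher and 1, 1, 1, 1 and 2 lower. The shares of all genes called there were 20.9%, 22.8%, 26.5%, 32.8% and 27%. Against miR-125b, 0, 0, 1 and 0 were called higher and 0, 0, 2 and 0 lower in hypoxia, and 0, 0, 0 and 1 higher and 0, 0, 2 and 2 lower in normoxia. All genes were called there at 2.03%, 0.873%, 19.3% and 3.75% in hypoxia and at 0%, 0.414%, 13.9% and 11.4% in normoxia. The list's median stayed between -0.16 and 0.23 in all 18 comparisons.

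The list of 9 proliferation genes found of 10 fell with hypoxia, 9, 9, 8, 9 and 8 of them being called lower with a median of -2.30 to -1.69. Among all genes, 20.9%, 22.8%, 26.5%, 32.8% and 27% were called there in either direction. Against MC in hypoxia 0, 0, 7, 8 and 8 of the 9 were called higher, beside 21.9%, 24.8%, 28.1%, 37.2% and 23.8% of all genes in either direction. Against miR-125b 0, 3, 8 and 8 of the 9 were called higher in hypoxia and 0, 0, 9 and 9 in normoxia. The shares of all genes called there were 2.03%, 0.873%, 19.3% and 3.75% in hypoxia and 0%, 0.414%, 13.9% and 11.4% in normoxia. In the comparisons with MC and with miR-125b, 0 of the 9 were called lower. With Hypoxia Plus A against Hypoxia miR-125b, however, 9 of the 9 were lower at an adjusted p below 0.05, all by less than 1.5-fold (median -0.41). On the adjusted p alone, 15.9% of all genes passed there. Of the 9 genes tested of 10 for the hypoxia response, 8, 8, 8, 5 and 7 were called higher with hypoxia, and 4, 5, 4, 4 and 3 lower with the mimics against MC. Against miR-125b, 0, 0, 1 and 0 of them were called higher and 0, 1, 3 and 1 lower in hypoxia, and 0, 0, 2 and 0 higher and 0, 0, 0 and 2 lower in normoxia. The shares of all genes called in these comparisons are those given for the proliferation list. Ccna2 and Ndrg1 were chosen after their values were seen to show these lists. Ccna2, of the cyclin that drives DNA replication, was at 12.5 ± 0.268 CPM (SD, n = 3) in Hypoxia MC. It was at 77.1 ± 10.1 CPM in Normoxia miR-125b and 195 ± 8.18 CPM in Normoxia Trim AG. Ndrg1 was called lower with all 5 mimics against MC (-3.66 to -1.70), well beyond the median of its list there (-0.67 to -0.38). With hypoxia Ndrg1 was called higher under 3 of 5 mimics (-0.56 to 1.83). In the interactions, Trim AG gave 1 call lower for end protection, 1 higher and 1 lower for the Tert regulators, 1 higher for proliferation and 5 lower for the hypoxia response, Trim AGU gave 1 higher for the hypoxia response, and the lists had no other call. These stand beside 11.3% of all genes called in the interaction of Trim AG and 0.966% in that of Trim AGU. The median of all genes lay within 0.02 of 0 in every comparison and interaction. Terf1, Pif1 and Blm were low in the same hypoxia groups in which the proliferation genes were low, and the part of growth in the members' values was not tested.

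**Figure D4:**
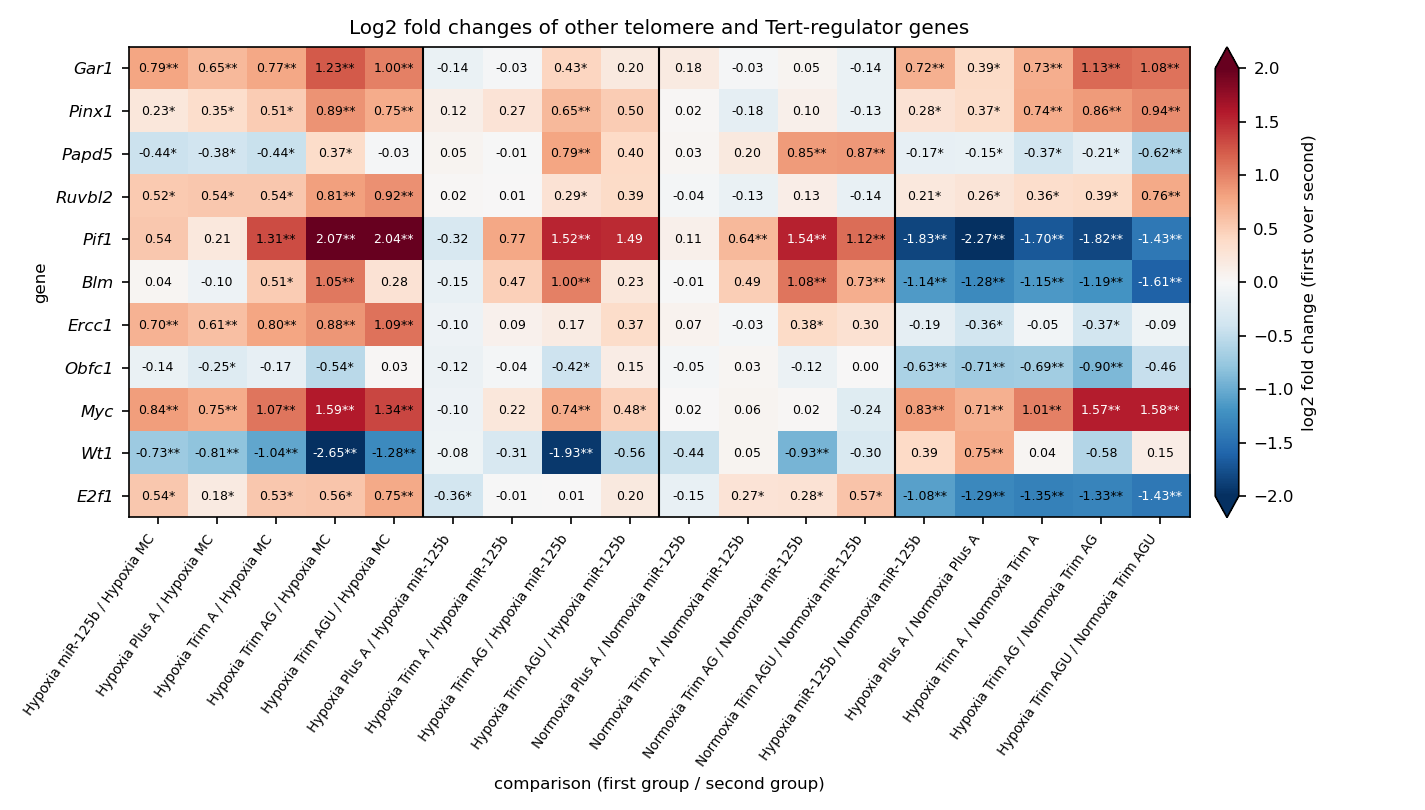
Log2 fold change (colour, limited to 2 either way, with the value in each cell) of 11 genes from the 3 telomere lists (rows) in the 18 comparisons (columns), with ** for a call and * for an adjusted p below 0.05 only. Myc is called higher in all 10 comparisons against MC or against normoxia, and Pif1, Blm and E2f1 are called lower in all 5 comparisons of hypoxia with normoxia.

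By the Pearson correlation of log2 CPM over the 11 group means, the genes most like Tert among 12313 candidates with a mean of at least 1 CPM were Dbh (dopamine beta-hydroxylase, r = 0.955), Wdr78 (a dynein intermediate chain, r = 0.944), Maz (a zinc finger transcription factor, r = 0.943), Slc39a5 (a zinc transporter, r = 0.941) and Sec61a1 (the channel of the endoplasmic reticulum translocon, r = 0.937). All 5 were lowest in Hypoxia MC, as Tert was, which the choice by likeness to Tert favours. Dbh was at 0.898 CPM there and at 2.48 to 4.68 CPM in the other groups. Group means share libraries and 1 low group, so these values are a description. Over the 33 single libraries, 3 of the 5 stayed among the 5 most like genes, and with Spearman's rank correlation 0 did. Of the other telomere genes, Dkc1 was the most like Tert (r = 0.595 over the 11 groups), followed by Terf2ip (0.407), Terf2 (0.342) and Terf1 (0.286), and Tep1 (-0.203), Tinf2 (-0.303) and Rtel1 (-0.360) had negative values.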

How the data were processed

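Poly(A) RNA of H9C2 cells was sequenced without strand by the authors. Per the labels HISAT2 and StringTie were used, and their versions, the genome build and the counting settings are not given in the sources used here. The deposited tables give read counts per gene, which were tested as deposited, and FPKM, which the authors scaled to gene length and library and which were used to compare genes. The authors' signal columns hold mean normalised counts of a group, and these were used only for the Normoxia MC mean. The 88 other columns of values scaled by the authors per sample were not used, nor were the columns of the authors' own comparisons, which hold fold changes and p-values.

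Each comparison was fitted on the 6 libraries of its pair of groups with edgeR 4.0.16 in R 4.3.3, with filterByExpr, TMM scaling and the quasi-likelihood test, and each interaction on the 12 libraries of 4 groups. Between 14720 and 15603 genes were tested, and p-values were adjusted over all of them (Benjamini-Hochberg). A call needed an adjusted p below 0.05 and a fold of at least 1.5. Libraries held 28361216 to 42672584 counts. The scripts were tested on simulated data. Alternatives were DESeq2 1.42.0, RLE or library size scaling, no filter, a joint fit of every library, a replicate block, no fold threshold and each library left out. The genes, lists and tests were chosen with earlier results of these data known. From each of the 3 telomere lists, the 4 genes called in the most of the 18 comparisons were named, together with the 5 genes most like Tert. Of these, 1 gene is not reported here. Python 3.11.15, pandas 2.3.3, numpy 2.4.6 and matplotlib 3.10.9 were used for tables and plots.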

Additional observations from a re-analysis of the deposited data

Results flagged for a closer look

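For Trim AG, the test of whether its difference from miR-125b depends on oxygen passed the adjusted p for Terf2ip (0.33), Tinf2 (-0.52) and Rtel1 (-0.39) on the log2 scale, which means that the difference between these mimics was tested to be unequal in hypoxia and normoxia. None of the 3 reached 1.5-fold. Each lost its adjusted p without at least 1 library. The interactions share the Hypoxia and Normoxia miR-125b and Trim AG libraries, and the counts of Tinf2 may include reads of Gmpr2.

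The Normoxia MC group entered no comparison, as only the authors' mean was used for it. In the authors' table Tert had a mean of 62.6 normalised counts in Normoxia Plus A and 14.9 in Normoxia MC, a ratio of 4.20. The same ratio was 1.48 for Terf2ip, 0.751 for Terf1, whose log2 fold change with Plus A against MC in hypoxia was 0.28 (edgeR adjusted p = 0.0681, not passed), and 0.923 to 1.26 for the other 5 genes. Counts of the 3 Normoxia MC libraries were not used here, so these ratios have no SD and no test.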

How the results depend on the processing

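Of 2312 alternative values of the fold changes of the 8 genes, 2273 kept their direction and their side of the threshold, 29 no longer passed, 10 newly passed and 0 that had passed changed direction, while 61 changed sign with an adjusted p that passed in neither fit. With no fold threshold, the number of the 7 genes other than Tert passing against MC in hypoxia was 4 with miR-125b, 4 with Plus A, 4 with Trim A (2 with the threshold) and 5 with Trim AG (2 with it). Against miR-125b it was 1 with Hypoxia Plus A, 3 with Hypoxia Trim AG, 3 with Normoxia Trim AG and 2 with Normoxia Trim AGU, each 0 with it. In hypoxia against normoxia it was 5 with miR-125b, 4 with Plus A, 4 with Trim A and 5 with Trim AG (0, 0, 1 and 2 with it), and in the Trim AG interaction it was 3 (0 with it). The calls of Hypoxia Trim AGU against MC went from 2 to 0 with library size as the only scaling and to 1 with the replicate block. The replicate block also took Trim AGU in hypoxia against normoxia from 2 to 1, and no filter took Trim AG from 2 to 1.

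Leaving out 1 library gave 0 to 2 calls for Hypoxia Trim AGU against MC, 0 to 1 for Hypoxia Trim AG against miR-125b, and in hypoxia against normoxia 0 to 1 for Plus A, 1 to 3 for Trim AG and 1 to 2 for Trim AGU, and 0 to 1 for the Trim AG interaction. The other 16 counts stayed as they were. Within the 18 comparisons the replicate numbers did not pair the libraries (r of same-numbered deviations -0.161 to 0.0756). This check did not set the Hypoxia Trim groups against each other, where replicate 1 held the most type I collagen RNA in each. A link by replicate number between those groups was not tested. Library size scaling moved the median of all genes by -0.139 for Hypoxia Trim AGU against MC, by 0.109 for Plus A in hypoxia against normoxia and by -0.132 for the Trim AGU interaction. With 5 to 12 counts of Tert in each Hypoxia MC library, depth limits the size of its folds there. The cause of these changes was not tested.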
